A study of Arabidopsis thaliana with 12 samples.

Results

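The UMAMIT, AAP and LHT genes encode amino acid carriers of the plasma membrane and, for some UMAMITs, of inner membranes of Arabidopsis cells, and other families hold further carriers. They were taken by symbol: a gene was a member if its symbol in the deposited table was UMAMIT, AAP or LHT followed by a number. Of the 22953 genes listed, 51 were members, of which 41 were *UMAMIT*, 7 *AAP* and 3 *LHT* genes. *AAP8* and *UMAMIT9* were not analysed here, and 2 further genes of the UMAMIT family stood under other symbols, *WAT1* (UMAMIT5) and *SIAR1* (UMAMIT18), and were not counted as members.

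Amino acids are made in source tissues, loaded into the phloem and unloaded in growing sinks, and every membrane on this route needs a carrier. AAPs (amino acid permeases) and LHTs (lysine histidine transporters) are proton symporters that bring amino acids into cells, whereas UMAMITs (usually multiple acids move in and out transporters) are facilitators that mostly let them out along the gradient. In seedlings these carriers move nitrogen from cotyledon reserves and from roots to the shoot apex and the young leaves.

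The RNA came from above-ground parts of Arabidopsis (Col-0) seedlings in 4 groups of 3 libraries: *tmt2* seedlings without added sugar (*tmt2-S*, 7 days), *tmt2* seedlings given 1% sucrose (*tmt2-L-Suc*, 5 days), WT seedlings given 1% sucrose (WT-Suc, 5 days) and WT seedlings without added sugar (WT, 5 days), all on 1/2 MS medium. The ages are those of the labels, and the study's text gives lower ones for every group. The *tmt2* line is a single T-DNA line with insertions in the last exon of *TMT2*, which encodes a tonoplast sugar importer, and the transcript before the insertions is still made. *tmt2-S* seedlings are those of the mutant without true leaves and were older than the rest, so the effects of genotype, growth class and age cannot be told apart in *tmt2-S*/WT, nor those of sucrose, growth class and age in *tmt2-S*/*tmt2-L-Suc*. The labels do not say whether the replicates came from separate sowings; the study's text calls them biological replicates where it plots expression levels of these groups. A p-value here sets the difference between group means against the spread between these libraries only.

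The total expected count (RSEM's estimate of the reads per gene, summed) lay between 20187961 and 21370053 per library. The count of *TMT2* does not check the genotype, since reads from before the insertions remain, and its FPKM (fragments normalized to transcript length and to the mapped fragments of the library) ran from 21.8 to 25.4 (*tmt2-S*), from 10.8 to 24.8 (*tmt2-L-Suc*), from 7.33 to 11.4 (WT-Suc) and from 7.04 to 9.36 (WT). The summed FPKM of 5 photosynthetic genes of the shoot was at least 61277 in every library, and that of 5 root genes was at most 5.52. A single library stood apart in genes of seed storage and oil bodies, with a summed FPKM of 150.9 in WT-Suc replicate 2 against at most 10.08 in the other 11 libraries.

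Genes were tested on the expected counts with edgeR's quasi-likelihood F-test, two-sided, with Benjamini-Hochberg adjustment over the 18506 genes that passed a filter on low counts. A gene is called at an adjusted p of at most 0.05, and a called gene with a log2FC (log2 fold change) of at least 1.2 in size is a DEG. All 7 *AAP* and 3 *LHT* members passed the filter but only 25 of 41 *UMAMIT* members did, so 35 members were tested. The 16 that did not pass (*UMAMIT3*, *7*, *8*, *14*, *15*, *19*, *23* to *26*, *32*, *34* to *37* and *42*) had at most 0.92 FPKM and 26 counts in any library, and 7 of them had at most 3 counts in every library. Among these 16, *UMAMIT36* had 0 counts in all 3 *tmt2-S* libraries, against 15, 8 and 1 counts in the WT and 8, 11 and 8 counts in *tmt2-L-Suc*. In 10 of the 12 fits that left out 1 library it passed the filter and was called lower in *tmt2-S*/WT (adjusted p from 0.0046 to 0.034). Leaving out 1 library makes the smallest group smaller and so loosens the filter, and no *tmt2-S* library helped the gene to pass. It was not called without WT replicate 1 or *tmt2-L-Suc* replicate 2, its libraries with 15 and 11 counts. These 10 calls are therefore not a check of its fall.

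Short promoter stretches are shown for the 2 members with the largest rise in *tmt2-S* (*UMAMIT33* and *LHT7*), for the *AAP* gene with the largest fall (*AAP6*) and for 2 genes of 1 array that moved in opposite directions (*UMAMIT46* and *UMAMIT45*). Each is the 250 bases before the annotated start of the gene in RefSeq's TAIR10.1 annotation, the build to which the reads were aligned, written 5′ to 3′ on the strand of the gene. Capitals mark CACGTG (the G-box, bound by bZIP and bHLH factors), TATCCA (a sugar-starvation element known from rice alpha-amylase genes), ACTCAT (an element of the proline dehydrogenase promoter) and TTGAC (the core of the W-box, bound by WRKY factors), each searched on both strands (GTCAA is TTGAC on the other strand, and CACGTG reads the same on both).
UMAMIT33: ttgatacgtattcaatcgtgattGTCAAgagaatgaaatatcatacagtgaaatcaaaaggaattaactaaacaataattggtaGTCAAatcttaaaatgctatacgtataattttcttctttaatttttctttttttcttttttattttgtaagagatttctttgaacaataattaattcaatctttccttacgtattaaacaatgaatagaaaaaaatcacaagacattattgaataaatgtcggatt
LHT7: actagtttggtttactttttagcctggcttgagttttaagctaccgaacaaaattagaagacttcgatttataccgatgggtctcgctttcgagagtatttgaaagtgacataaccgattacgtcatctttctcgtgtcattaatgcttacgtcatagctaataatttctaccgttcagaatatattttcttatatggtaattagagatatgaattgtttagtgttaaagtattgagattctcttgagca
AAP6: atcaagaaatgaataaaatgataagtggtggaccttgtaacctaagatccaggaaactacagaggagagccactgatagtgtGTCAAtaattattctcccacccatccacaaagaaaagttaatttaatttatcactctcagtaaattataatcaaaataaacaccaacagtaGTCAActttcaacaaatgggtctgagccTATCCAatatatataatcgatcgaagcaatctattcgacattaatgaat
UMAMIT46: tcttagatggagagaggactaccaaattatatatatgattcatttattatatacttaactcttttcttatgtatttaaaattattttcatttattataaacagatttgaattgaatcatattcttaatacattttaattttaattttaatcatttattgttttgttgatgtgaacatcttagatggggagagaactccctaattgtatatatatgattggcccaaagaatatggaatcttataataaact
UMAMIT45: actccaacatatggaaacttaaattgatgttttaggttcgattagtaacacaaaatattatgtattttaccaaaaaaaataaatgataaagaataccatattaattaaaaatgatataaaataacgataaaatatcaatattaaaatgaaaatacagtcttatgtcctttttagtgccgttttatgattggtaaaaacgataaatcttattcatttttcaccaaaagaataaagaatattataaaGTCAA

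The stretch of *UMAMIT33* lies at chr4:13940057-13940306 (plus strand), that of *LHT7* at chr4:16740602-16740851 (minus strand), that of *AAP6* at chr5:20146691-20146940 (minus strand), and those of *UMAMIT46* and *UMAMIT45* at chr3:10447595-10447844 and chr3:10455779-10456028 (plus strand). *UMAMIT33* held the W-box core 2 times, *AAP6* held it 2 times together with 1 TATCCA, *UMAMIT45* held it 1 time, and none of the 4 motifs was found in the windows of *LHT7* and *UMAMIT46*. Matches of different motifs did not overlap in the windows shown. Over all 51 members the W-box core was in 24 windows (47.1%), against 44.9% of the 27443 windows of nuclear protein-coding genes. TATCCA was in 10 member windows (19.6%, against 13.6%), and ACTCAT and CACGTG were in 3 each (5.88%, against 12.3% and 6.49%). A match describes the letters only and is not a binding site.

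In *tmt2-S*, compared with the WT, the members moved in both directions. *UMAMIT33* and *LHT7*, which were low or at 0 in the WT, came up, and *AAP5*, *AAP3*, *AAP1* and *UMAMIT45* rose, whereas *AAP6*, *AAP2* and 13 *UMAMIT* genes fell. Of the 35 tested members, 23 were called, 8 of them higher (20.7% of all tested genes were called higher) and 15 lower (22.6% of all tested genes). By family, 2 of 25 *UMAMIT* genes were higher and 13 lower, 3 of 7 *AAP* genes were higher and 2 lower, and 3 of 3 *LHT* genes were higher, of which *LHT7* passed the filter only through *tmt2-S* and the calls of *LHT1* and *LHT2* were lost without *tmt2-S* replicate 2 (adjusted p = 0.29 and 0.25). Among the 13 *UMAMIT* genes called lower, *UMAMIT4*, *UMAMIT10*, *UMAMIT17* and *UMAMIT27* passed the filter without any *tmt2-S* library, through groups where they were higher. The called share of all tested genes was 43.3%. DEGs numbered 18 (19.8% of all tested genes were DEGs), and the FPKM of the groups did not overlap for 25 members (50% of all tested genes). The median log2FC was -0.48 over the members and -0.01 over all tested genes. With 1 library left out, the number of members called ran from 18 to 25.

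Against *tmt2-L-Suc*, the sucrose-fed mutant, 22 of the 35 were called in *tmt2-S*, 10 higher (25.7% of all tested genes) and 12 lower (25.8%). Those called higher include *LHT7*, which passed the filter only through *tmt2-S*. Those called lower include *UMAMIT4*, *UMAMIT10*, *UMAMIT17* and *UMAMIT27*, which passed it without any *tmt2-S* library. The called share of all tested genes was 51.5%, and DEGs numbered 15 (23% of all tested genes). The median log2FC of the members was -0.48, or -0.27 with genes at the floor set to their bound, and -0.01 over all tested genes. The 3 *tmt2-S* libraries enter this comparison and the one with the WT, so the values of the pair are given side by side and are not independent. The number of members called against *tmt2-L-Suc* ran from 17 to 26 with 1 library left out.

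**Figure D1:**
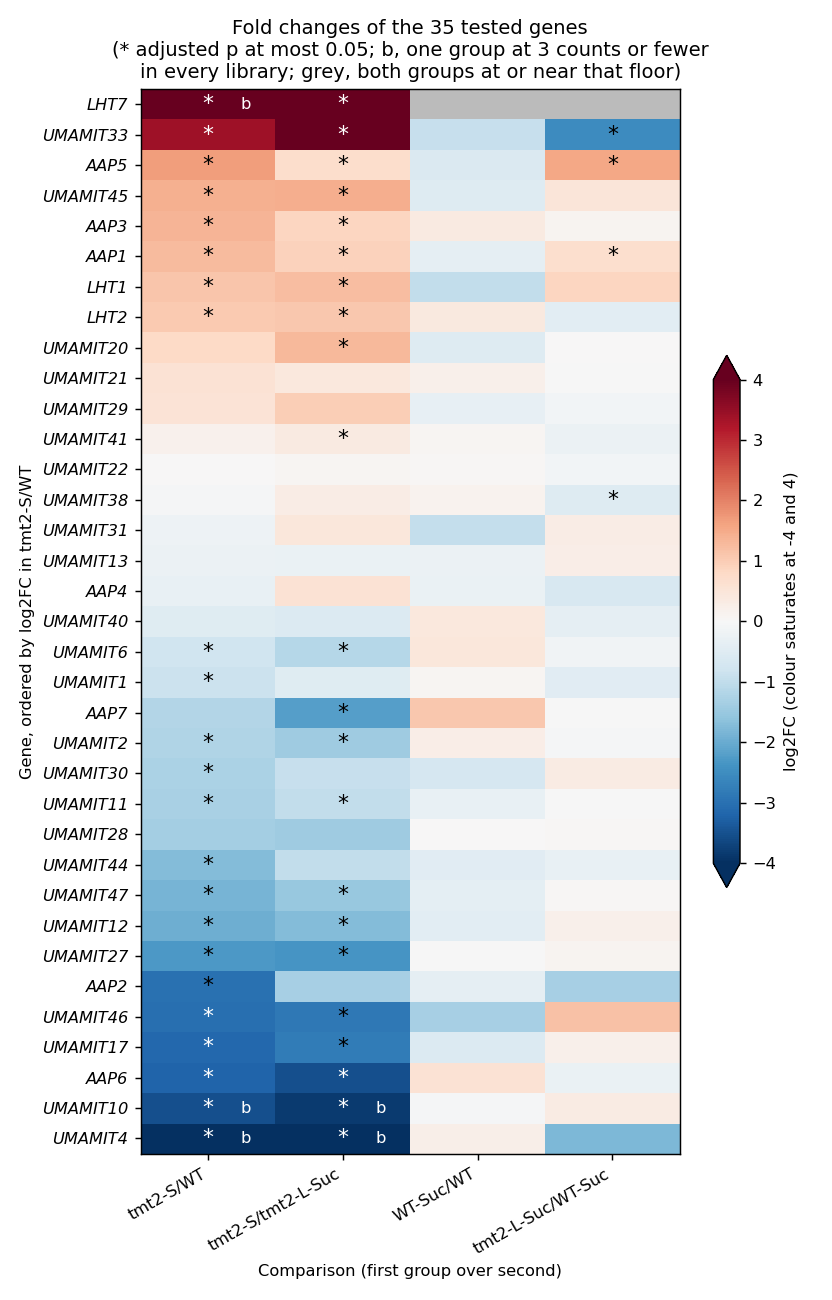
Log2 fold change of the 35 tested members (rows, ordered by *tmt2-S*/WT) in 4 comparisons (columns, first group over second), with red for higher and blue for lower in the first group and an asterisk at an adjusted p of at most 0.05. A b marks a bound, with 1 group at 3 counts or fewer in every library, and grey marks both groups at or near that floor. The 23 and 22 asterisks stand in the columns of *tmt2-S*/WT and *tmt2-S*/*tmt2-L-Suc*, 0 in WT-Suc/WT and 4 in *tmt2-L-Suc*/WT-Suc.

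*UMAMIT33* (AT4G28040, chromosome 4, 13940307 to 13942436) had 46.3, 66.1 and 71.7 FPKM in *tmt2-S*, against 4.70, 3.18 and 9.31 FPKM in the WT. In *tmt2-L-Suc* it had 0.81, 0.67 and 0.16 FPKM, and in WT-Suc 4.35, 2.97 and 2.02 FPKM. All *tmt2-S* libraries lay far above the other 9, and the *tmt2-L-Suc* libraries below all the rest. The gene was 10.5-fold higher in *tmt2-S* than in the WT (log2FC 3.40 ± 0.40 SE, adjusted p = 3.8e-05) and 116-fold higher than in *tmt2-L-Suc* (6.85 ± 0.51, adjusted p = 1.05e-06). It was the most abundant of the 51 members in each *tmt2-S* library, with 31.4 to 47.0% of the summed *UMAMIT* FPKM, against 2.56 to 8.02% in the WT.

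*LHT7* (AT4G35180, chromosome 4, 16737835 to 16740601), a member of the lysine histidine transporter family, was at the floor in the WT. It had 174, 173 and 27 counts in *tmt2-S* and 0 in all 3 WT libraries, where a count of 0 allows up to 3 counts. In *tmt2-L-Suc* it had 5, 0 and 1 counts, and in WT-Suc 0 in each library. Against a floor of 3 counts per library, the mean of *tmt2-S* was at least 42.5-fold higher than in the WT (adjusted p = 0.00073), and *tmt2-S* replicate 3 was much lower than the other two. Among the tested members, *LHT7* was the only one that passed the filter on low counts through a single group. Against *tmt2-L-Suc* its log2FC was 6.0 ± 0.97 (adjusted p = 0.00093), and 7.72 without *tmt2-L-Suc* replicate 1, the library with 5 counts. The other *tmt2-L-Suc* libraries are at the floor, so this last value depends on the prior count.

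**Figure D2:**
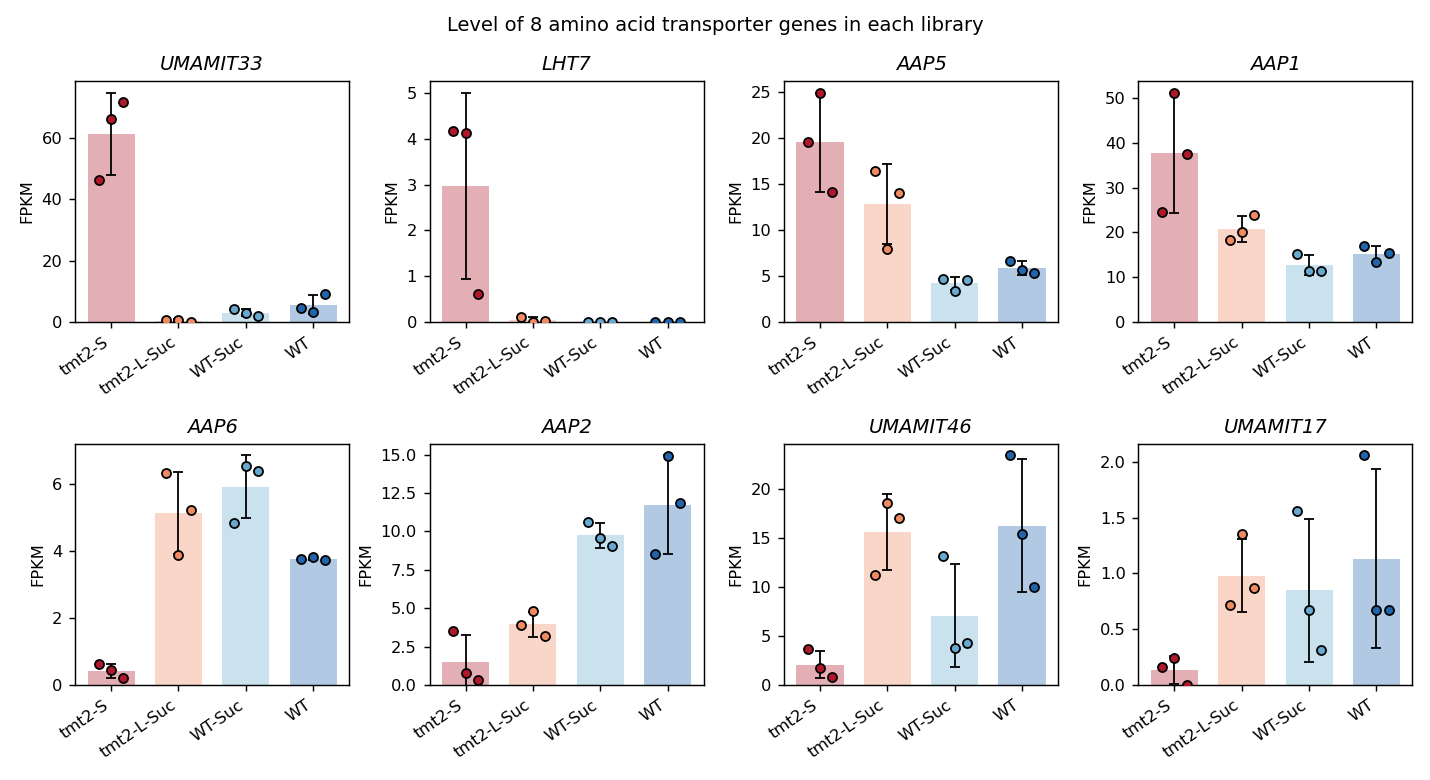
FPKM of 8 members (panels) in the 4 groups, with 1 point per library, bars for the mean and error bars for the SD of 3 libraries. The 4 genes of the upper row are higher in *tmt2-S* than in the WT, with *UMAMIT33* between 46.3 and 71.7 FPKM in *tmt2-S*, and those of the lower row are lower, with *AAP6* between 0.20 and 0.62 FPKM.

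The *AAP* genes split by member. *AAP1*, which imports neutral amino acids and glutamate into root cells and embryos, had 24.5, 51.2 and 37.5 FPKM in *tmt2-S*, against 16.9, 13.4 and 15.45 FPKM in the WT, and rose 1.27 ± 0.23 (log2FC ± SE, adjusted p = 0.00072). *AAP5*, a carrier of neutral and basic amino acids that takes up lysine and arginine in roots, had 19.5, 24.9 and 14.1 FPKM in *tmt2-S*, against 6.68, 5.70 and 5.28 FPKM in the WT (log2FC 1.68 ± 0.25, adjusted p = 0.00018). *AAP3*, which also carries basic amino acids, had 2.44, 3.73 and 4.02 FPKM, against 1.2, 0.94 and 1.79 FPKM (1.35 ± 0.33, adjusted p = 0.0057). For these 3 importers the *tmt2-S* libraries lay above all WT libraries.

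The same 3 genes were also called in *tmt2-S*/*tmt2-L-Suc*. *AAP1*, with 18.2, 20.1 and 23.9 FPKM in *tmt2-L-Suc*, was higher in *tmt2-S* by a log2FC of 0.93 ± 0.22 (adjusted p = 0.0039), and the groups did not overlap. *AAP5* had 16.4, 7.97 and 14.1 FPKM in *tmt2-L-Suc* and *AAP3* had 2.67, 1.07 and 2.27 FPKM, both overlapping with *tmt2-S* (log2FC 0.69 ± 0.24, adjusted p = 0.027, and 0.85 ± 0.32, adjusted p = 0.041). The call of *AAP5* was lost without *tmt2-S* replicate 2 (adjusted p = 0.14), *tmt2-L-Suc* replicate 2 (0.10) or *tmt2-L-Suc* replicate 3 (0.052). That of *AAP3* was lost without *tmt2-S* replicate 2 or 3 (0.10 and 0.13), *tmt2-L-Suc* replicate 2 or 3 (0.14 and 0.068) or WT replicate 1 (0.051).

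*AAP6* and *AAP2* fell. *AAP6*, a high-affinity permease of the xylem parenchyma, had 0.62, 0.44 and 0.20 FPKM in *tmt2-S*, against 3.74, 3.80 and 3.73 FPKM in the WT, and 6.30, 3.86 and 5.21 FPKM in *tmt2-L-Suc*. No *tmt2-S* library came near the other groups, and the gene was 9.16-fold lower than in the WT (log2FC -3.19 ± 0.31, adjusted p = 9.5e-06) and 11.5-fold lower than in *tmt2-L-Suc* (-3.52 ± 0.31, adjusted p = 3.4e-06). *AAP2*, which moves amino acids from xylem to phloem along the transport path, had 3.49, 0.75 and 0.29 FPKM in *tmt2-S*, against 8.50, 14.9 and 11.8 FPKM in the WT (-3.00 ± 0.57, adjusted p = 0.0011). Without *tmt2-S* replicate 1 this log2FC was -4.54. In *tmt2-L-Suc*, *AAP2* had 3.88, 4.81 and 3.16 FPKM, and it did not pass the test in *tmt2-S*/*tmt2-L-Suc* (-1.33 ± 0.57, adjusted p = 0.065). Without *tmt2-S* replicate 1, the library with 3.49 FPKM, the log2FC of that comparison was -2.87 with an adjusted p of 8.9e-05.

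Most markers of the vascular tissue fell in *tmt2-S*/WT, as *AAP6* and *AAP2* did. *AAP4*, also a permease of vascular tissue, was not called there (log2FC -0.30 ± 0.26, adjusted p = 0.38). All 3 xylem genes tested (*XCP1*, *XCP2* and *IRX3*) were called lower in *tmt2-S*/WT, as were 22.6% of all tested genes. Their summed FPKM was 1.23 to 3.30 in *tmt2-S*, against 8.73 to 11.2 in the WT. Of 3 phloem genes, 2 were also called lower (*SUC2* and *SEOR1*, not *APL*). The summed FPKM of all 3 phloem genes was 24.8 to 33.7 in *tmt2-S*, against 49.3 to 53.7 in the WT. Of 5 photosynthetic genes, 3 (*CAB1*, *CAB3* and *RBCS2B*) also fell, with a summed FPKM of all 5 of 61277 to 86973 in *tmt2-S*, against 99336 to 106055 in the WT. In bulk tissue, fewer cells of a type and less RNA per cell cannot be told apart, and the part of these marker shifts in the change of the members was not tested. In *tmt2-L-Suc* the xylem sum was 28.9 to 31.9, against 6.50 to 15.5 in WT-Suc, while *AAP6* had 6.30, 3.86 and 5.21 FPKM in *tmt2-L-Suc* and 4.83, 6.53 and 6.36 FPKM in WT-Suc (log2FC -0.25 ± 0.24, adjusted p = 0.49). *AAP2* was lower in *tmt2-L-Suc*, with 3.16 to 4.81 FPKM against 9.02 to 10.6 FPKM in WT-Suc, but did not pass the test (log2FC -1.32 ± 0.52, adjusted p = 0.090).

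Of the remaining *AAP* genes, *AAP7*, for which no transport has been shown, had 0.42, 0.20 and 0.19 FPKM in *tmt2-S*, 1.42, 1.43 and 1.05 FPKM in *tmt2-L-Suc* and 0.71, 0.54 and 0.75 FPKM in the WT. It fell relative to *tmt2-L-Suc* (log2FC -2.21 ± 0.42, adjusted p = 0.00086) and missed the threshold relative to the WT (-1.16 ± 0.44, adjusted p = 0.0501), a call that was gained without *tmt2-S* replicate 1 (adjusted p = 0.013), WT-Suc replicate 1 (0.026) or WT-Suc replicate 2 (0.046). *AAP4*, a permease of vascular tissue, had 11.7, 14.2 and 6.75 FPKM in *tmt2-S*, against 16.98, 12.1 and 9.60 FPKM in the WT, overlapping, and did not pass the test (-0.30 ± 0.26, adjusted p = 0.38). Against *tmt2-L-Suc* (8.70, 7.45 and 6.72 FPKM) its log2FC was 0.58 ± 0.27 (adjusted p = 0.085), which passed without *tmt2-S* replicate 3 (0.81, adjusted p = 0.016).

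*LHT1*, the high-affinity importer of root epidermis and leaf mesophyll, had 2.12, 5.03 and 2.18 FPKM in *tmt2-S*, against 0.98, 1.22 and 2.15 FPKM in the WT and 1.29, 1.5 and 1.34 FPKM in *tmt2-L-Suc*. *LHT2*, known from anthers, had 0.76, 2.28 and 1.25 FPKM in *tmt2-S*, against 0.65, 0.59 and 0.75 FPKM in the WT and 1.00, 0.63 and 0.48 FPKM in *tmt2-L-Suc*. Both were called higher in *tmt2-S* than in the WT, with a log2FC of 1.09 ± 0.42 (adjusted p = 0.0496) and 1.05 ± 0.38 (adjusted p = 0.039), and than in *tmt2-L-Suc*, with 1.23 ± 0.42 (0.026) and 1.09 ± 0.38 (0.028). For each gene, replicate 2 was the highest *tmt2-S* library by a wide margin. Without it the log2FC was 0.58 (adjusted p = 0.29) for *LHT1* and 0.56 (0.25) for *LHT2* relative to the WT, and 0.70 (0.18) and 0.59 (0.20) relative to *tmt2-L-Suc*. The call in *tmt2-S*/WT was also lost without WT replicate 1 or 2, WT-Suc replicate 3 or any *tmt2-L-Suc* library for *LHT1* (adjusted p from 0.057 to 0.15), and without *tmt2-S* replicate 3, WT-Suc replicate 2 or any WT library for *LHT2* (0.0501 to 0.11). That in *tmt2-S*/*tmt2-L-Suc* was also lost without *tmt2-L-Suc* replicate 1 or 3 for *LHT1* (0.072 and 0.081) and without *tmt2-L-Suc* replicate 2 or 3 for *LHT2* (0.070 and 0.12).

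Among the *UMAMIT* members that fell, *UMAMIT46* had the highest level in the WT. It had 3.62, 1.76 and 0.84 FPKM in *tmt2-S*, against 23.4, 15.4 and 9.97 FPKM in the WT and 11.2, 18.6 and 16.97 FPKM in *tmt2-L-Suc*, and was 8.16-fold lower than in the WT (log2FC -3.03 ± 0.56, adjusted p = 0.00092) and 7.33-fold lower than in *tmt2-L-Suc* (-2.87 ± 0.56, adjusted p = 0.00097). *UMAMIT17* had 0.16, 0.24 and 0 FPKM in *tmt2-S*, against 2.06, 0.67 and 0.67 FPKM in the WT and 0.72, 1.35 and 0.87 FPKM in *tmt2-L-Suc* (log2FC -3.13 ± 0.82, adjusted p = 0.0084, and -2.81 ± 0.83, adjusted p = 0.013). *UMAMIT27* had 0.34, 0.28 and 0.05 FPKM in *tmt2-S*, against 0.94, 1.22 and 1.07 FPKM in the WT and 1.57, 1.07 and 0.96 FPKM in *tmt2-L-Suc* (-2.29 ± 0.49, adjusted p = 0.0025, and -2.37 ± 0.49, adjusted p = 0.0014). For all 3 the *tmt2-S* libraries lay below every library of both other groups, and a lack of overlap was part of the rule by which these genes were named. In *tmt2-S*, *UMAMIT17* had 4, 6 and 0 counts and *UMAMIT27* had 6, 6 and 1 counts, near the floor of 3 counts. Neither gene had a *tmt2-S* library that helped it to pass the filter, so their log2FC is less certain than that of *UMAMIT46*.

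Low-level genes reached the floor in *tmt2-S*. *UMAMIT10* had 1, 0 and 1 counts there, against 11, 5 and 10 counts in the WT and 11, 11 and 14 counts in *tmt2-L-Suc*, and was at least 3.03-fold lower than in the WT and at least 3.75-fold lower than in *tmt2-L-Suc* (adjusted p = 0.0040 and 0.0015). *UMAMIT4* had 0 counts in all 3 *tmt2-S* libraries, against 5, 10 and 15 counts in the WT, and was at least 3.45-fold lower (adjusted p = 0.0051). These folds are set by the floor of 3 counts per library and the levels cannot be followed further down. In a model of just *tmt2-S* and the WT, neither gene passed the filter, so neither was tested there. *UMAMIT4* also did not pass the filter of 10 counts in every library of a group. In *tmt2-L-Suc*, *UMAMIT4* had 6, 5 and 0 counts, and its call in *tmt2-S*/*tmt2-L-Suc* (adjusted p = 0.037) was lost when any of the 3 *tmt2-S* libraries or *tmt2-L-Suc* replicate 1 or 2 was left out (adjusted p from 0.065 to 0.096).

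The *UMAMIT* genes known from seeds, where they export amino acids toward the embryo, were low in these shoots. *UMAMIT11* had 1.11, 0.99 and 0.76 FPKM in *tmt2-S*, against 2.06, 2.30 and 2.48 FPKM in the WT and 1.57, 2.26 and 2.09 FPKM in *tmt2-L-Suc*, and fell in both comparisons (log2FC -1.30 ± 0.28, adjusted p = 0.0025, and -0.99 ± 0.28, adjusted p = 0.010). *UMAMIT28* had 0.67, 0.17 and 0 FPKM in *tmt2-S*, against 0.58, 0.70 and 0.71 FPKM in the WT (-1.35 ± 0.74, adjusted p = 0.16), and it passed the test without *tmt2-S* replicate 1 (-2.81, adjusted p = 0.016). *UMAMIT29* had 0.93, 0.82 and 0.31 FPKM in *tmt2-S*, against 0.20, 0.52 and 0.65 FPKM in the WT, overlapping (0.55 ± 0.67, adjusted p = 0.54). *UMAMIT14*, known from phloem unloading in roots and seeds, had 3 counts in 1 library of *tmt2-L-Suc* and 1 of WT-Suc and 0 in the other 10.

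An array of neighbouring *UMAMIT* genes held members that moved in opposite directions. Of the 51 members, 17 lie in 6 groups in which neighbours are at most 2 protein-coding genes apart, and the largest group is an array of 5 genes on chromosome 3 between 10442608 and 10468958, all on the plus strand in the order *UMAMIT41*, *UMAMIT46*, *UMAMIT47*, *UMAMIT45* and *UMAMIT44*. In this array *UMAMIT46*, *UMAMIT47* and *UMAMIT44* fell in *tmt2-S*/WT and *UMAMIT45*, which lies between *UMAMIT47* and *UMAMIT44*, rose. It was the only 1 of the 6 groups with members called in both directions in *tmt2-S*/WT. The groups of *UMAMIT27* and of *UMAMIT40* each had a single tested member and so could not show both directions. Against *tmt2-L-Suc*, the neighbours *UMAMIT20* and *UMAMIT17* were also called in opposite directions (log2FC 1.29 and -2.81). *UMAMIT45* had 12.3, 16.9 and 8.88 FPKM in *tmt2-S*, against 6.0, 3.81 and 3.56 FPKM in the WT and 4.60, 4.77 and 4.14 FPKM in *tmt2-L-Suc* (log2FC 1.42 ± 0.30, adjusted p = 0.0023, and 1.46 ± 0.30, adjusted p = 0.0014). *UMAMIT47* averaged 2.94 ± 1.14 FPKM in *tmt2-S* and 9.93 ± 3.34 FPKM in the WT (SD, n = 3 each), and *UMAMIT44* averaged 2.32 ± 1.06 and 7.51 ± 2.92 FPKM in the same groups (log2FC -1.86 ± 0.30 and -1.75 ± 0.40). *UMAMIT41*, at the start of the array, had 20.2, 24.0 and 22.4 FPKM in *tmt2-S*, against 18.3, 18.9 and 19.9 FPKM in the WT, and did not pass the test (0.19 ± 0.12, adjusted p = 0.22).

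Against *tmt2-L-Suc*, *UMAMIT41* was called higher in *tmt2-S* by a log2FC of 0.35 ± 0.12 (adjusted p = 0.022), a call that was lost without *tmt2-S* replicate 2 (0.083) or 3 (0.059) or *tmt2-L-Suc* replicate 2 (0.092). *UMAMIT20* lies next to *UMAMIT17* on chromosome 4. It had 5.56, 10.4 and 6.45 FPKM in *tmt2-S*, against 3.08, 3.67 and 2.72 FPKM in *tmt2-L-Suc* (1.29 ± 0.44, adjusted p = 0.026) and 5.46, 3.29 and 3.85 FPKM in the WT (0.80 ± 0.43, adjusted p = 0.16, or 0.043 without WT-Suc replicate 1). Its call against *tmt2-L-Suc* was lost without *tmt2-S* replicate 2 (0.11) or *tmt2-L-Suc* replicate 1 (0.072) or 3 (0.086). The pair on chromosome 2 had *UMAMIT12* with 1.2, 0.84 and 0.24 FPKM in *tmt2-S*, against 4.29, 2.45 and 1.70 FPKM in the WT (-1.95 ± 0.65, adjusted p = 0.028), and *UMAMIT13*, which did not pass the test (-0.25 ± 0.20, adjusted p = 0.33). In *tmt2-L-Suc* *UMAMIT12* had 1.47, 3.79 and 2.53 FPKM (-1.73 ± 0.65, adjusted p = 0.040), a call that was lost without *tmt2-S* replicate 2 or 3, *tmt2-L-Suc* replicate 2 or 3 or WT replicate 2 (0.051 to 0.15). The call of *UMAMIT12* relative to the WT was lost without *tmt2-S* replicate 2 (0.066) or 3 (0.091) or WT replicate 1 (0.12).

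Neighbours of this kind are copies of each other, and reads from a stretch that 2 genes share could be split between them. No pair of members shared 150 bases, the length of a read, without a mismatch in their spliced transcripts. The longest shared stretch was 83 bases, between *UMAMIT27* and *UMAMIT26*, and that of *UMAMIT46* and *UMAMIT45* was 61 bases. All 612 expected counts of the 51 members were whole numbers (tolerance 1e-09), against 1.79% of the values of all genes that were not. Levels of close copies are still uncertain where reads fall in such stretches.

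**Figure D3:**
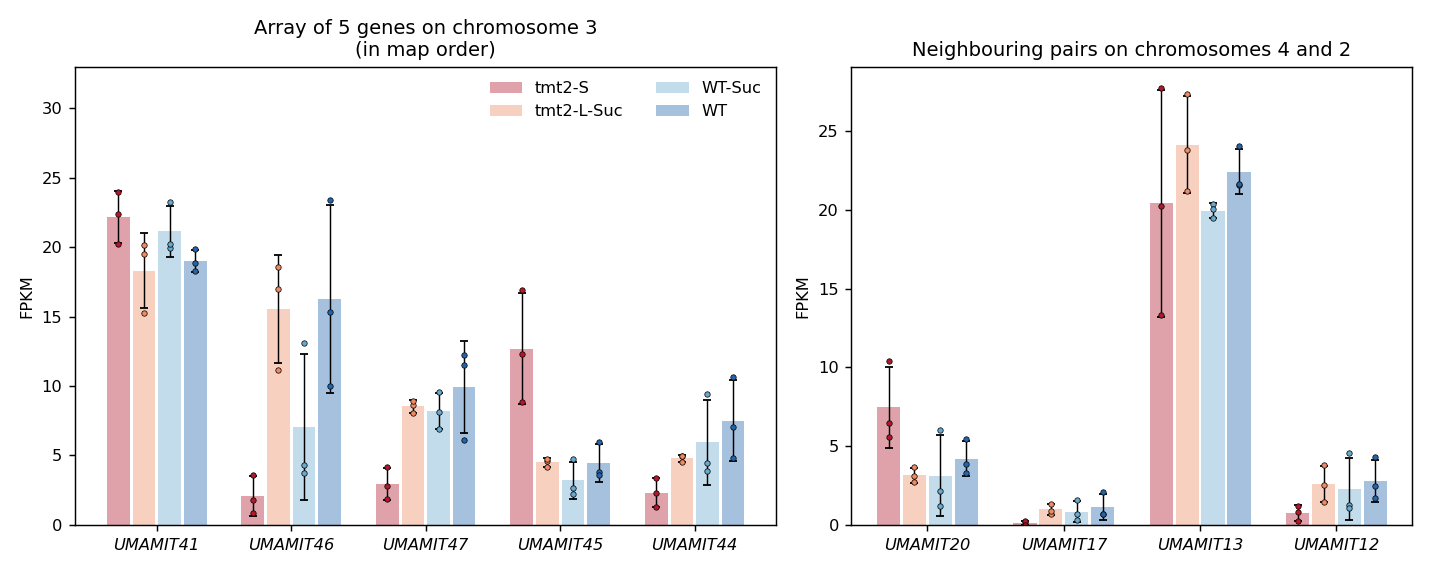
FPKM of the 5 genes of the array on chromosome 3 (left, in map order) and of the pairs *UMAMIT20* and *UMAMIT17* and *UMAMIT13* and *UMAMIT12* (right), with 1 point per library, bars for the mean and error bars for the SD of 3 libraries in each group. *UMAMIT45* is highest in *tmt2-S* (8.88 to 16.9 FPKM), while *UMAMIT46* in the same array is lowest there (0.84 to 3.62 FPKM).

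Of the 4 *UMAMIT* members with the highest mean FPKM in the WT, *UMAMIT13*, *UMAMIT41*, *UMAMIT46* and *UMAMIT38*, all but *UMAMIT46* were not called in *tmt2-S*/WT. *UMAMIT13* had 27.7, 20.2 and 13.3 FPKM in *tmt2-S*, against 21.6, 24.1 and 21.7 FPKM in the WT, and the groups overlapped. Without *tmt2-S* replicate 1 it was called lower in *tmt2-S* (adjusted p = 0.035). *UMAMIT38* had 11.7, 12.8 and 14.6 FPKM in *tmt2-S*, against 13.1, 13.7 and 13.0 FPKM in the WT (log2FC -0.06 ± 0.14, adjusted p = 0.77). The genes *UMAMIT21*, *UMAMIT22*, *UMAMIT31* and *UMAMIT40*, with 0.15 to 2.46 FPKM over all libraries, were not called in any comparison (*UMAMIT40* was called lower against *tmt2-L-Suc* without *tmt2-S* replicate 2, adjusted p = 0.045). The remaining called *UMAMIT* genes were *UMAMIT30*, *UMAMIT2*, *UMAMIT1* and *UMAMIT6*, all lower in *tmt2-S*, with a log2FC between -1.27 and -0.81. Of these, *UMAMIT2* kept its call with each library left out. *UMAMIT30* lost it without *tmt2-S* replicate 1 or 3 or WT replicate 1 (adjusted p from 0.051 to 0.096), *UMAMIT1* without *tmt2-S* replicate 2 or WT replicate 2 or 3 (0.057 to 0.080), and *UMAMIT6* without any of 11 libraries, all but *tmt2-S* replicate 3 (0.051 to 0.15). Relative to *tmt2-L-Suc*, *UMAMIT2* (-1.43 ± 0.24, adjusted p = 0.00036), *UMAMIT47* (-1.51 ± 0.30, 0.0010) and *UMAMIT6* (-1.13 ± 0.29, 0.0063) were called lower in *tmt2-S* and kept that call with each library left out. *UMAMIT44* missed it (-0.98 ± 0.40, adjusted p = 0.055) and passed without *tmt2-S* replicate 1, WT-Suc replicate 1 or WT replicate 1 or 3 (0.021 to 0.043).

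Summed over the 51 members, the FPKM of *tmt2-S* was 217, 277 and 220, that of *tmt2-L-Suc* 171, 166 and 176, that of WT-Suc 191, 151 and 144 and that of the WT 201, 177 and 167. The *tmt2-S* libraries were the highest and did not overlap with the rest. *UMAMIT33* alone had 46.3 to 71.7 FPKM in *tmt2-S*. The summed FPKM of the *UMAMIT* genes without *UMAMIT33* was 101, 105 and 80.8 for *tmt2-S*, 110, 117 and 118 for *tmt2-L-Suc*, 135, 99.5 and 95.1 for WT-Suc and 139.99, 121 and 107 for the WT. Between 20 and 21 members reached 1 FPKM in the libraries of *tmt2-S*, against 23 to 26 in *tmt2-L-Suc*, 22 to 28 in WT-Suc and 24 to 25 in the WT.

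**Figure D4:**
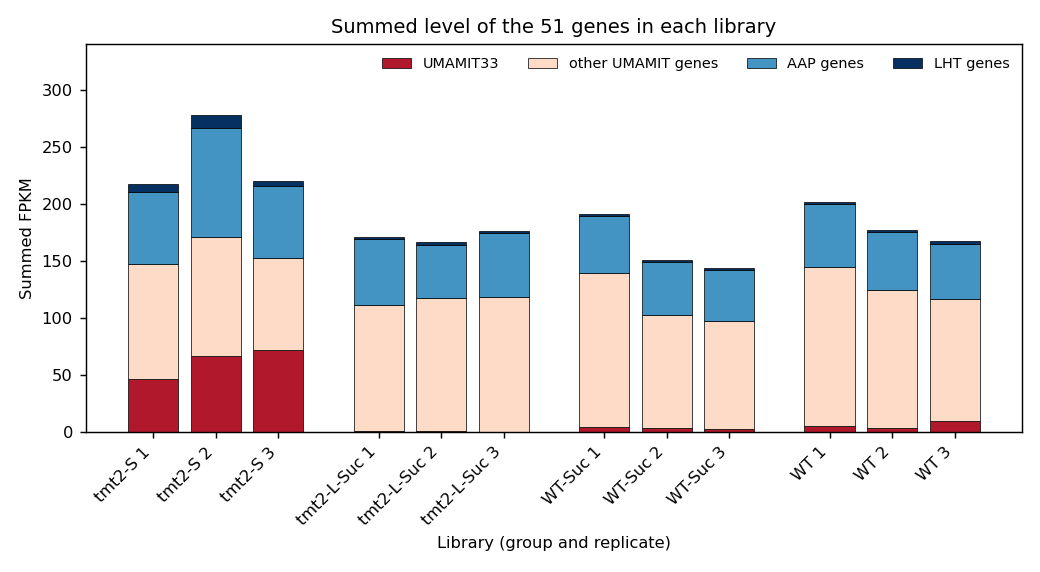
Summed FPKM of the 51 members in each library (bars), split into *UMAMIT33*, the other *UMAMIT* genes, the *AAP* genes and the *LHT* genes. The 3 *tmt2-S* libraries reach 217 to 277 FPKM, with 46.3 to 71.7 FPKM from *UMAMIT33*, and the other 9 libraries reach 144 to 201 FPKM.

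Sucrose in the WT was tested by WT-Suc/WT. None of the 35 tested members was called by edgeR (0 of 35, against 1.47% of all tested genes, and 0.983% that were DEGs) or by DESeq2 (0), and 7 members had an unadjusted p of at most 0.05 in edgeR, which is 20% of them, against 19.5% of all tested genes. The median log2FC was -0.23 over the members and 0.02 over all tested genes. The smallest p belonged to *AAP7*, with 2.1, 0.80 and 1.00 FPKM in WT-Suc, against 0.71, 0.54 and 0.75 FPKM in the WT (log2FC 1.07 ± 0.39, adjusted p = 0.16). *UMAMIT46* had 13.1, 3.72 and 4.29 FPKM in WT-Suc, against 23.4, 15.4 and 9.97 FPKM in the WT (-1.33 ± 0.51, adjusted p = 0.18). WT-Suc replicate 1 was the highest of its group for *UMAMIT46*, *UMAMIT44*, *UMAMIT12*, *UMAMIT20* and *UMAMIT17*. Without it, 2 members were called, *UMAMIT46* (-2.07, adjusted p = 0.034) and *UMAMIT20* (-1.37, adjusted p = 0.044), both lower in WT-Suc. Without WT-Suc replicate 2, the library with the high seed storage genes, 0 members were called.

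With sucrose in both genotypes (*tmt2-L-Suc*/WT-Suc, both 5 days), 4 of 35 members were called, 2 higher (10% of all tested genes) and 2 lower (10.4%), against 20.5% in both directions. DEGs numbered 2 (7.2% of all tested genes). *AAP5* had 16.4, 7.97 and 14.1 FPKM in *tmt2-L-Suc*, against 4.68, 3.42 and 4.56 FPKM in WT-Suc, without overlap (log2FC 1.55 ± 0.25, adjusted p = 0.0019). *UMAMIT33*, with 0.81, 0.67 and 0.16 FPKM in *tmt2-L-Suc*, against 4.35, 2.97 and 2.02 FPKM in WT-Suc, was 5.74-fold lower (-2.52 ± 0.51, adjusted p = 0.0055). The calls of these 2 genes were kept under every alternative run.

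The other 2 calls were weaker. *AAP1* had 18.2, 20.1 and 23.9 FPKM in *tmt2-L-Suc*, against 15.2, 11.4 and 11.5 FPKM in WT-Suc (log2FC 0.68 ± 0.23, adjusted p = 0.0486), and *UMAMIT38* had 11.4, 12.2 and 9.89 FPKM, against 16.5, 15.9 and 14.3 FPKM (-0.50 ± 0.14, adjusted p = 0.028). Without *tmt2-L-Suc* replicate 1 or 3 or WT-Suc replicate 2 or 3, neither passed and 2 members were called. *AAP1* alone lost its call without *tmt2-L-Suc* replicate 2, *tmt2-S* replicate 3 or any WT library, with an adjusted p of 0.053 to 0.16 over all these fits. Without WT-Suc replicate 1, 7 members were called, with *LHT1* (1.42, adjusted p = 0.0497), *UMAMIT46* (1.92, adjusted p = 0.017) and *UMAMIT36* (adjusted p = 0.042, and 0.049 without WT replicate 3) added.

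*AAP2* had 3.88, 4.81 and 3.16 FPKM in *tmt2-L-Suc*, against 10.6, 9.54 and 9.02 FPKM in WT-Suc. The groups did not overlap, but the gene did not pass the test (log2FC -1.32 ± 0.52, adjusted p = 0.090). It passed without *tmt2-S* replicate 1 (-1.32, adjusted p = 0.0051) or *tmt2-S* replicate 3 (-1.31, adjusted p = 0.031), and in a fit of only these 2 groups.

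The effect of sucrose was also compared between the genotypes, as the log2FC of *tmt2-L-Suc* over *tmt2-S* minus that of WT-Suc over the WT. This difference passed the test for 10 of 35 members, being positive for 9 (18.1% of all tested genes) and negative for 1 (16.6%), against 34.6% of all tested genes in both directions. It was at least 1.2 in size for 9 members (20.1% of all tested genes). Of the positive calls, those of *UMAMIT10*, *UMAMIT17* and *UMAMIT27* are of genes that passed the filter without any *tmt2-S* library, through groups where they were higher. The difference was negative for *UMAMIT33* (-5.92 ± 0.63, adjusted p = 8.8e-05), whose level was 116-fold lower in *tmt2-L-Suc* than in *tmt2-S* and 1.91-fold lower in WT-Suc than in the WT. Among the members that passed, the 3 largest positive values were 4.21 ± 0.75 for *UMAMIT46* (adjusted p = 0.0013), 3.86 ± 0.99 for *UMAMIT10* (0.0099), which was at the floor in *tmt2-S* so that the value depends on the prior count, and 3.34 ± 1.06 for *UMAMIT17* (0.028), and *AAP6* had 2.94 ± 0.39 (0.00026). For the *AAP* and *LHT* genes that rose in *tmt2-S* the difference did not pass, with -0.58 ± 0.32 for *AAP1*, -0.13 ± 0.34 for *AAP5*, -1.22 ± 0.47 for *AAP3*, -0.25 ± 0.62 for *LHT1* and -1.47 ± 0.54 for *LHT2* (adjusted p from 0.051 to 0.80). For *LHT7*, at 0 in the WT and WT-Suc, it could not be fitted with a usable error. Without *tmt2-S* replicate 1, 20 members passed, with *AAP1* (adjusted p = 0.021), *AAP3* (0.030), *LHT2* (0.011) and *AAP2* (0.00034) among them. *AAP3* also passed without WT replicate 3 (0.041), and *AAP3* and *LHT2* without *tmt2-L-Suc* replicate 1 (0.044 and 0.036). With DESeq2, 15 members passed, with *AAP3* (0.045) and *LHT2* (0.048) among them, and *LHT2* also passed with a filter of 10 counts (0.0495).

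Carriers outside the 3 families, from lists drawn up with earlier results known, moved in both directions in *tmt2-S*/WT. Of 19 tested cationic amino acid, proline, GABA and vacuolar amino acid carriers, 10 were called higher (20.7% of all tested genes) and 3 lower (22.6%), with a median log2FC of 0.89 (all tested genes -0.01). Among them were *AVT6A* (81.0 ± 22.0 FPKM in *tmt2-S*, against 37.0 ± 1.48 FPKM in the WT) and *AVT3C* (37.1 ± 11.7 against 13.4 ± 1.09 FPKM), whose family exports amino acids from the vacuole, and *ANT1*, an aromatic and neutral amino acid carrier (42.7 ± 2.18 against 17.5 ± 3.0 FPKM; SD, n = 3). The largest log2FC of the 19 was that of *CAT1* (3.04, with 1.40 ± 0.69 against 0.17 ± 0.04 FPKM). The proton-coupled proline carrier *ProT2* (2.09 ± 0.70 against 4.36 ± 1.15 FPKM) and *BAT1*, a bidirectional carrier (2.42 ± 0.19 against 6.34 ± 0.82 FPKM), fell. In the family of *ProT2*, *ProT1* also fell (3.70 ± 0.58 against 5.47 ± 0.08 FPKM), whereas *ProT3* rose (6.59 ± 2.48 against 1.13 ± 0.40 FPKM). Of 5 tested glutamine dumper genes, small membrane proteins whose overexpression raises amino acid export, 4 fell and 0 rose, with a median log2FC of -2.79. Of 4 di- and tripeptide carriers, 3 rose and 1 fell, and of 5 genes of the LAT family, which holds polyamine uptake carriers, 1 rose and 2 fell.

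The 2 *UMAMIT* genes under other symbols also fell in *tmt2-S*. *WAT1*, which exports auxin from the vacuole and is needed for secondary walls, averaged 21.7 ± 7.75 FPKM in *tmt2-S* and 74.1 ± 19.6 FPKM in the WT (SD, n = 3 each; log2FC -1.86 ± 0.23, adjusted p = 5.5e-05). *SIAR1*, a bidirectional amino acid transporter known from siliques, averaged 0.20 ± 0.12 FPKM in *tmt2-S* and 3.59 ± 0.31 FPKM in the WT (-4.18 ± 0.40, adjusted p = 8.5e-06).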

How the data were processed

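RNA from shoots of 4 groups of 3 Arabidopsis libraries was analysed. The authors filtered the reads (150 bases), aligned them to TAIR10.1 with Bowtie2 and computed expression with RSEM. The deposited expected counts are RSEM's estimated read counts per gene, without normalization, and the deposited FPKM values were scaled by the authors for transcript length and for mapped fragments. Versions were not given in the sources used here. Strandedness was also not given, so reads of overlapping antisense genes could not be told apart. Columns of TPM and of averages were not used.

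Libraries were grouped by genotype and sucrose in their labels. Rounded counts were fitted in edgeR 4.0.16 under R 4.3.3 (filterByExpr with the 4 groups, TMM, estimateDisp, glmQLFit and glmQLFTest, 1 mean per group over 12 libraries). An SE was obtained from the log2FC and the F value (absolute log2FC over root F). The biological coefficient of variation was 0.209. The DEG thresholds are those of the study's methods, which name no test. A fold against a group with at most 3 counts in every library is given as a bound against 3 counts per library. Promoters, gene positions and transcripts were read from RefSeq's TAIR10.1 files with Python 3.11.15, and all 22953 gene identifiers were matched.

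The members and all lists were chosen with earlier results of these data known. By rule the text names, for *tmt2-S*/WT and *tmt2-S*/*tmt2-L-Suc*, the 6 largest and 6 smallest log2FC among called members whose groups do not overlap, up to 3 in each direction for the other comparisons, and always *AAP1* to *AAP7*, the *LHT* genes and *UMAMIT11*, *UMAMIT14*, *UMAMIT28* and *UMAMIT29*; the other members named, and all array neighbours, were added after their values were seen. Alternatives were median-of-ratios scaling, DESeq2 1.42.0, no filter, a filter of 10 counts in every library of a group, the replicate number as a block, a model of just the pair of groups in question, and each library left out in turn.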

Additional observations from a re-analysis of the deposited data

Results flagged for a closer look

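For 10 of 35 tested members (34.6% of all tested genes) the effect of sucrose differed between *tmt2* and the WT by the interaction term of edgeR's quasi-likelihood test (log2FC of *tmt2-L-Suc* over *tmt2-S* minus that of WT-Suc over the WT). The *tmt2* effect also holds the difference in growth class and age between *tmt2-L-Suc* and *tmt2-S*, which cannot be told apart from sucrose. The difference was -5.92 for *UMAMIT33*, 4.21 for *UMAMIT46*, 3.86 for *UMAMIT10*, 3.34 for *UMAMIT17*, 2.94 for *AAP6*, 2.40 for *UMAMIT27*, 1.90 for *UMAMIT47*, 1.59 for *UMAMIT30*, 1.30 for *UMAMIT11* and 1.16 for *UMAMIT2*. *UMAMIT10*, *UMAMIT17* and *UMAMIT27* passed the filter on low counts without any *tmt2-S* library, through groups where they were higher. Of the 10 calls, 7 were kept with each library left out in turn. *UMAMIT17* lost its call without *tmt2-S* replicate 3, *tmt2-L-Suc* replicate 2, WT-Suc replicate 2 or 3 or WT replicate 1 (adjusted p from 0.053 to 0.084), *UMAMIT30* without 7 different libraries (0.057 to 0.10) and *UMAMIT11* without *tmt2-L-Suc* replicate 2 (0.053).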

How the results depend on the processing

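No called member turned its direction under any alternative run. Of the 23 calls in *tmt2-S*/WT, 15 were kept in all 18 alternatives, as were 14 of 22 in *tmt2-S*/*tmt2-L-Suc*, 2 of 4 in *tmt2-L-Suc*/WT-Suc and, in 17 alternatives, 7 of 10 for the interaction. With each library left out in turn, the members called ran from 18 to 25 (DEGs 16 to 22) in *tmt2-S*/WT, from 17 to 26 (13 to 19) in *tmt2-S*/*tmt2-L-Suc*, from 0 to 2 (0 to 2) in WT-Suc/WT, from 2 to 7 (2 to 5) in *tmt2-L-Suc*/WT-Suc and from 7 to 20 (7 to 16) for the interaction. The highest interaction counts, 20 and 16, came without *tmt2-S* replicate 1, and those of WT-Suc/WT and *tmt2-L-Suc*/WT-Suc without WT-Suc replicate 1; the cause was not tested. Without a filter on low counts, 26 members were called in *tmt2-S*/WT, with *UMAMIT36*, *UMAMIT32*, *UMAMIT25* and *UMAMIT37* added, all under 1 FPKM. Same-numbered libraries of different groups deviated with a correlation between -0.33 and 0.33, over 0.1 in 4 of 18 pairs. With 3 libraries per group these values cannot exclude a pairing by replicate number. With the replicate number as a block, 22 members were called in *tmt2-S*/WT, 22 in *tmt2-S* against *tmt2-L-Suc*, 0 for sucrose in the WT, 4 between the genotypes on sucrose and 12 for the interaction. The block ended the calls of *LHT1* (adjusted p = 0.087) and *LHT2* (0.068) in *tmt2-S*/WT, of *AAP3* (0.058) and *UMAMIT4* (0.054) against *tmt2-L-Suc* and of *AAP1* (0.078) in *tmt2-L-Suc*/WT-Suc, and added *AAP7* (0.033), *UMAMIT30* (0.035) with *UMAMIT44* (0.011), and *UMAMIT46* (0.043) in the same comparisons, and *UMAMIT12* (0.030) and *UMAMIT44* (0.017) for the interaction. In a model of just the pair of groups, 18 members were called in *tmt2-S*/WT and 19 against *tmt2-L-Suc*. Relative to the WT it lost *LHT1* (adjusted p = 0.068), *LHT2* (0.080) and *UMAMIT6* (0.0998), and did not test *UMAMIT4* and *UMAMIT10*. Against *tmt2-L-Suc* it lost *AAP3* (0.066), *AAP5* (0.063), *LHT2* (0.080) and *UMAMIT41* (0.089), did not test *UMAMIT4*, and gained *UMAMIT30* (0.039) and *UMAMIT44* (0.032). Counts of 3 or fewer in every library limit *UMAMIT4* and *UMAMIT10* in *tmt2-S* and *LHT7* in the WT.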
